A study of Mus musculus with 8 samples.

Results

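The genes described here encode the proteins of the cytosolic ribosome and the factors that start and extend protein synthesis on it, measured in mouse visual cortex after the loss of 1 eye. Members were probe sets whose annotation gave a single gene symbol of the form Rpl or Rps followed by a number (S6 kinase genes left out), Eif followed by a number, or Eef followed by a number. Where several probe sets named 1 gene, the one chosen by its highest mean signal over all 8 arrays stood for it, so this measured value selected the probe set and is given only as a description. The rule found 82 genes of 8251 on the array, on 113 probe sets. They are 16 large-subunit proteins, 17 small-subunit proteins, 34 initiation factors, 6 elongation factors and 9 regulators that modify or bind these factors. A filter on dim probe sets kept 66 of the 82 genes, and the other 16 are given by their values only.

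A cytosolic ribosome joins a small subunit, which reads the mRNA, to a large subunit, which forms the peptide bond. Initiation factors bring the first tRNA and the capped mRNA to the small subunit, and elongation factors then deliver tRNAs and move the ribosome along. Vertebrate ribosomal protein mRNAs begin with a run of pyrimidines, the TOP tract, through which the kinase complex mTORC1 controls their translation. In neurons, protein synthesis on these ribosomes, in the cell body and in dendrites, is known for its part in lasting synaptic change.

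The animals were wild-type C57Bl6 mice in which 1 eye had been removed at postnatal day 20, and visual cortex was taken at postnatal day 24, which is 4 days later. The deprived group is the hemisphere contralateral to the lost eye and the non-deprived group the ipsilateral one, with 4 arrays each, numbered 1 to 4 in each group. Both hemispheres came from operated mice, and the samples hold no cortex of unoperated mice. Per the labels' protocols, 4 mice were used and about 10 µg of total RNA was labelled with biotin, but the design text speaks of pooled samples. It is therefore unclear if each array stands for a single animal or a pool, and the p-values speak only of how far these arrays differ among themselves, a spread that could be technical.

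The median signal of an array was 183 to 209, and the number of arrays limits the precision. All 11 cortical neuron markers on the array passed the filter, as did 10 of 10 interneuron and 7 of 7 astrocyte markers, while 0 of 4 choroid plexus markers did. Median log2 differences, deprived minus non-deprived, were -0.04 for cortical neuron, -0.01 for interneuron, -0.04 for oligodendrocyte, -0.06 for astrocyte, 0.08 for microglia, 0.09 for endothelial and mural, 0.11 for thalamus, -0.28 for hippocampus and -0.13 for blood markers. In bulk tissue, fewer cells of a type and less RNA per cell cannot be told apart. The activity-regulated transcription factor genes Fos and Egr1 had log2 differences of -0.89 ± 0.17 and -0.71 ± 0.20 (SE, n = 4 each), with every deprived array below every non-deprived one.

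No member passed the test between deprived and non-deprived cortex. With limma's moderated test and Benjamini-Hochberg adjustment over 7453 probe sets, 0 of 66 tested members and 0.0% of all probe sets had an adjusted p under 0.05, and the smallest adjusted p was 0.995. At an unadjusted p under 0.05 the count was 1 member, Eif3f, beside 2.61% of the 5675 genes tested. Eif3f, Eif2s2 and Eif2ak4 passed the filter only through the deprived arrays, where they were higher, so these 3 had to differ in that direction and their values are given as descriptions. With the array number as a block the count was 2 members, Eif3f and Rpl37a, beside 7.07% of genes, and again 0 passed after adjustment. In that limma fit the smallest adjusted p was 0.115 over all probe sets and 0.703 for these 2 members. The SEs given in the text are of the fit without the block. For Rpl37a the SE was 0.33 without the block and 0.13 with it. The arrays of the groups did not overlap for 0 members in the lower direction, beside 0.846% of genes, and for 1 member, again Eif3f, in the higher direction, beside 1.18% of genes. The counts of direction that follow describe these 8 arrays.

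The ribosomal protein genes lay mostly below 0. Of the 24 tested, 20 had a negative log2 difference and the median was -0.13, while 46.2% of all genes tested lay below 0 with a median of 0.02. Of the 11 large-subunit genes 9 lay below 0, with a median of -0.13, and of the 13 small-subunit genes 11 did, with a median of -0.14. The initiation factors were balanced, with 15 of 32 below 0 and a median of 0.00. Elongation factors had 3 of 5 below 0 and a median of -0.04, and regulators had 4 of 5 below 0 and a median of -0.05.

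This count depended on a few arrays. It was 13 of 24, with a median of -0.01, without deprived array 2, and 14 of 24 without both arrays numbered 3. In the other direction it was 21 of 24, with a median of -0.25 without non-deprived array 2, -0.24 without deprived array 4 and -0.24 with array weights. With 1 array left out, the median of the large-subunit genes ranged from -0.25 to -0.01 and that of the small-subunit genes from -0.31 to 0.00. With the actin 3' to 5' ratio, a measure of RNA integrity from the array's control probe sets, as a covariate, it was 4 of 24 and the median was 0.16. With the mean of all probe sets per gene, 16 ribosomal genes lay below 0, with a median of -0.11. The filter was applied anew in that setting, so the genes tested were not the same 24.

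**Figure D1:**
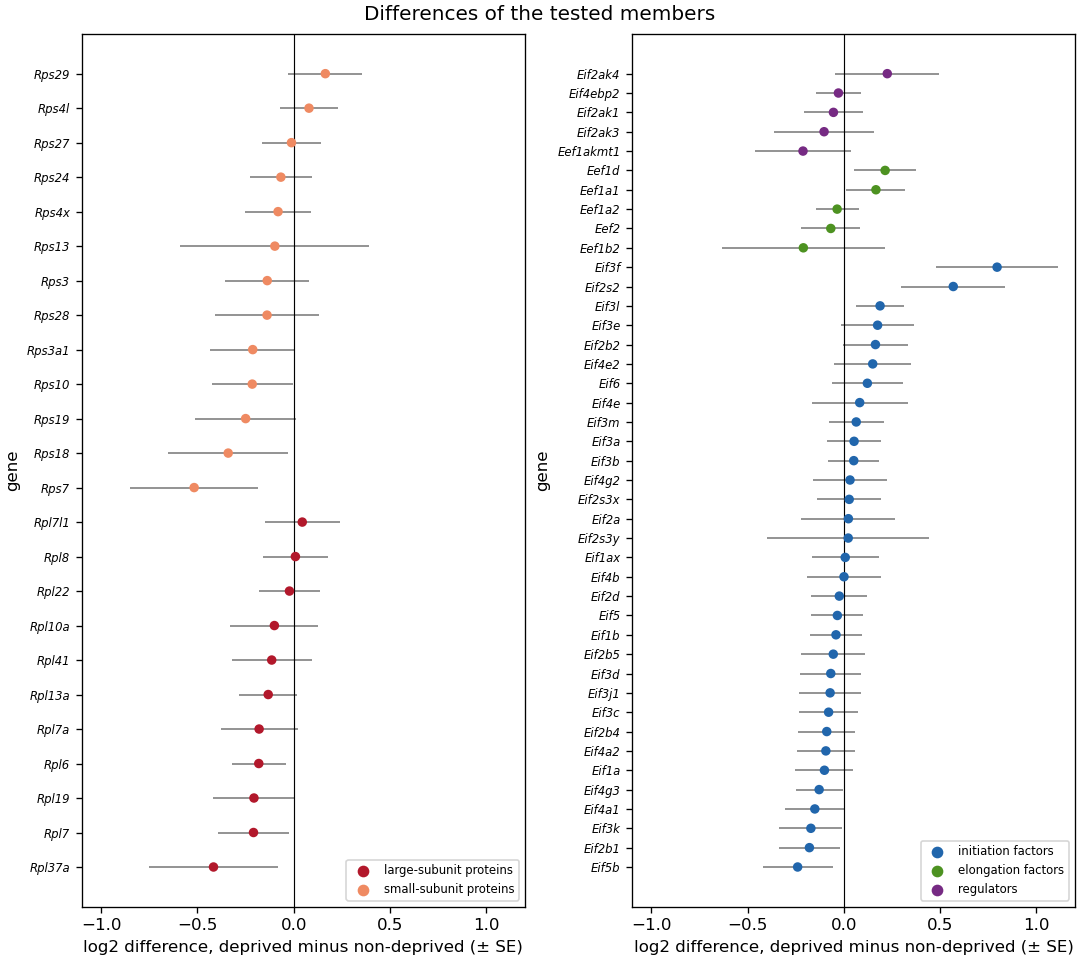
Log2 difference of signal plus pseudocount, deprived minus non-deprived, of the 66 tested members (points, ± SE from limma, 4 arrays a group), with ribosomal proteins on the left and factors and regulators on the right. Of the 24 ribosomal genes 20 lie left of 0, while Eif3f and Eif2s2 lie farthest to the right, and no member passed after adjustment.

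Among large-subunit genes, Rpl37a, which encodes a small zinc-binding protein of the subunit, was the lowest. Its signal in arrays 1 to 4 was 4501, 2325, 5046 and 5462 in non-deprived and 4302, 1625, 2813 and 4597 in deprived cortex. Each deprived array lay below the non-deprived array of its number, but the groups overlapped, and both arrays numbered 2 were the lowest of their group. The log2 difference was -0.42 ± 0.33 (SE), with unadjusted p = 0.235 and, with the number as a block, 0.00984 (limma, adjusted p = 0.703).

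Rpl6, which encodes a structural protein of the large subunit, was also lower in 4 of 4 pairs. It read 4685, 4028, 5103 and 4913 in non-deprived and 4556, 3396, 3914 and 4720.0 in deprived arrays. The lowest values of both groups were again in the arrays numbered 2, and the log2 difference was -0.18 ± 0.14 (SE). Rpl13a, named here after its values were seen, was the only other ribosomal gene lower in 4 of 4 pairs, at -0.13 ± 0.15. In all, 6 of 66 members were lower in 4 of 4 pairs, beside 7.49% of genes. The other 3 were the initiation factor genes Eif4g3, Eif2b1 and Eif1a. A second tested probe set of Eif1a was higher in 3 of 4 pairs, at -0.11 ± 0.43.

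Rpl7 and Rpl19, RNA-binding proteins of the large subunit, split by array number instead. Rpl7 had 5385, 4809, 4816 and 5172 in non-deprived and 6069.6, 3367, 3499 and 5048 in deprived arrays, a log2 difference of -0.21 ± 0.18 (SE). Rpl19 had 6074, 6595, 9020.0 and 8317 against 7599, 4288, 6009 and 8653, at -0.21 ± 0.21. In both, deprived arrays 2 and 3 were the low ones and deprived array 1 lay above its partner. Rpl41, whose product is a very short basic peptide, had means of 20651 ± 6101 and 18772 ± 3588 (SD, n = 4), and Rpl8 had 5961 ± 1115 and 5981 ± 1011, each with overlapping groups. Rpl7l1, a relative of Rpl7 that acts in ribosome assembly, had 146 ± 11.5 and 151 ± 15.8.

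Among small-subunit genes Rps7 had the lowest difference. Its signal was 5729, 4929, 5991 and 5943 in non-deprived and 5675, 2026, 2749 and 7539 in deprived cortex. Deprived arrays 2 and 3 lay far below every non-deprived array, and deprived array 4 lay above all of them. The log2 difference was -0.52 ± 0.33 (SE, unadjusted p = 0.148 in limma), and the SD was 2569 among deprived against 492 among non-deprived arrays.

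Rps18, a protein of the small subunit's head, spread in both groups. Its arrays read 5303, 4129.5, 8996 and 8677 in non-deprived and 6215, 3184, 4043 and 8301 in deprived cortex. Non-deprived array 3 was the highest of all 8 and deprived array 2 the lowest, so that pair 3 differed by -1.15 and pair 4 by -0.06. The log2 difference was -0.34 ± 0.31 (SE). Rps10, another protein of the head, had 3655, 3165, 4195 and 4468 against 4357, 2375, 2645 and 4350.4, at -0.22 ± 0.21.

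The other small-subunit genes named by rule had differences nearer to 0. Rps28 had means of 11168 ± 4115 and 9843 ± 2553, and Rps24 13611 ± 3013 and 12819 ± 1336 (SD, n = 4). Rps29, a zinc-binding protein of the subunit, and Rps4l, a relative of Rps4x, were the 2 tested small-subunit genes above 0, at 0.16 ± 0.19 and 0.08 ± 0.15 (SE). Ribosomal protein genes have many processed pseudogenes and close relatives, so probe sets may hybridise to more than 1 transcript. Among all 82 members, 7 stood on probe sets that the array maker's suffix marks as shared, and their values are uncertain in this respect. Rpl41, Rpl7, Rps28 and Rps4l were among them. Another 7 stood on probe sets marked by suffix as incomplete or with fewer probes, among them Rps24, Rps13, Eif4a1 and Eef1b2.

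**Figure D2:**
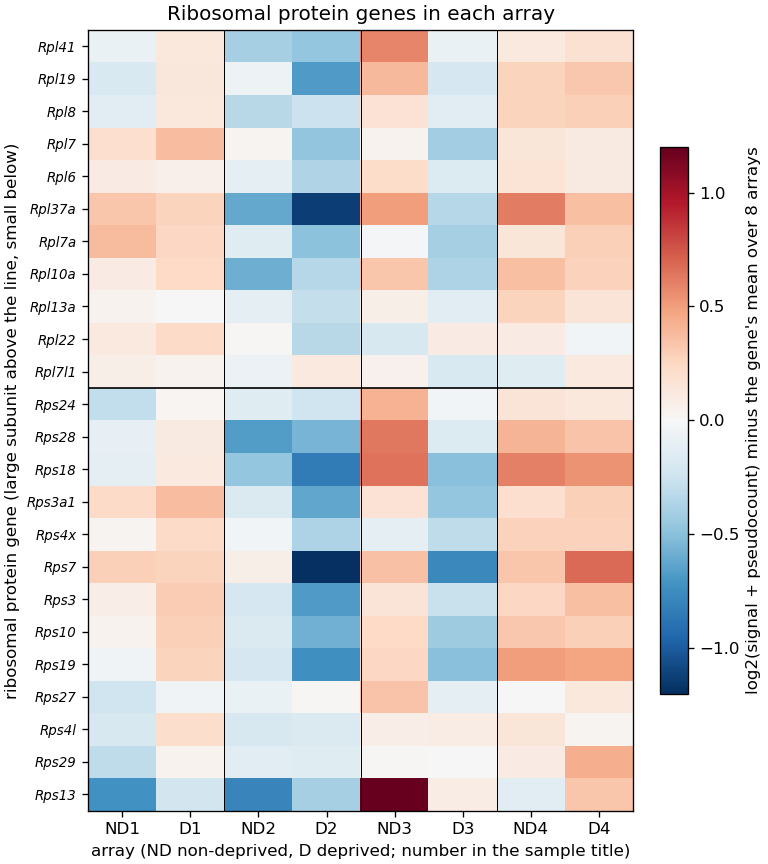
Each row is 1 of the 24 tested ribosomal protein genes and each column an array, ordered in same-numbered pairs (ND non-deprived, D deprived). Colour gives the log2 signal minus the gene's mean over 8 arrays. Most rows are blue in D2 and in D3 and red in ND3, ND4 and D4, while Rpl22, Rpl7l1 and Rps13 depart from that pattern.

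The ribosomal genes moved together from array to array more than they separated the groups. Their median centred log2 value was 0.04, -0.16, 0.23 and 0.22 in non-deprived arrays 1 to 4 and 0.18, -0.43, -0.19 and 0.28 in deprived arrays 1 to 4. The range of the deprived arrays thus held that of the non-deprived ones. In pair 1, 6 of 24 ribosomal genes were lower in the deprived array, in pair 2 17, in pair 3 22 and in pair 4 12, beside 50.6%, 46.7%, 44.0% and 50.4% of all genes tested. The median difference within pairs was 0.20, -0.29, -0.46 and -0.01. For the initiation factors the same medians were -0.06, -0.04, 0.06 and 0.00.

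**Figure D3:**
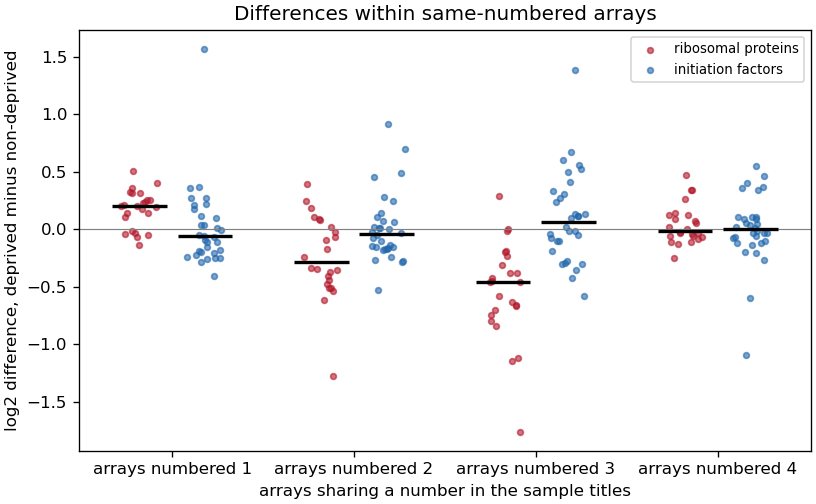
Log2 differences, deprived minus non-deprived, within arrays of the same number for the 24 ribosomal protein genes and the 32 initiation factors tested (points, 1 per gene, bars, median). Ribosomal genes lie above 0 in pair 1 (median 0.20) and below 0 in pairs 2 and 3 (-0.29 and -0.46), while the medians of the initiation factors stay between -0.06 and 0.06.

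After removal of each group's mean, a ribosomal gene correlated with the mean of the other ribosomal genes at a median r of 0.88 over the 8 arrays, and 20 of 24 had r above 0.5. Rpl6 had the highest value, 0.98. Rpl7l1 with 0.15, Rpl22 with 0.30, Rps13 with 0.47 and Rps27 with 0.49 were the 4 below; Rpl22, Rps13 and Rps27 are named after their values were seen. Among initiation factors the median r was 0.13, and 7 of 32 exceeded 0.5. These correlations describe 8 arrays that share scaling and pairing, and no test was made of them.

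Measured against the mean profile of the 24 ribosomal genes, the laminin-receptor and small-subunit protein gene Rpsa had r = 0.73 and the ribosomal stalk protein gene Rplp0, whose name falls outside the rule, had r = 0.94. Their log2 differences were -0.06 ± 0.16 and -0.02 ± 0.16 (SE). Among initiation factors Eif3k had the highest r, 0.86, and Eif4g2 the lowest, -0.96, and 4 of 32 lay above 0.5. Of the elongation factors 0 of 5 did, and of all other genes tested 19.0% did. Eif3k and Eif4g2 were singled out after their values were seen.

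Probe sets whose annotation joined a ribosomal protein gene with other symbols were not members, but 28 of them passed the filter and were read by the same measures. Of these, 23 lay below 0, with a median of -0.20, and 5, 24, 27 and 11 of 28 were lower in the deprived array of pairs 1 to 4. The second probe sets of ribosomal members gave 7 tested values, of which 2 lay below 0. Those 2 were a probe set of Rps28 with a mean signal of 4439 and a log2 difference of -0.42 and one of Rpl10a with 1247 and -0.30, while the other 5 had mean signals between 121 and 229, not far above the filter's level of 110. The second probe sets of initiation factors and regulators also gave 7 tested values, of which 5 lay below 0, with a median of -0.14.

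The actin ratio, the Gapdh ratio, the 18S controls and the blood markers were read beside the ribosomal profile in each array. The actin 3' to 5' ratio was 1.63, 1.43, 1.25 and 1.26 in non-deprived and 1.60, 1.91, 1.71 and 1.33 in deprived arrays 1 to 4. It was highest in deprived arrays 2 and 3, where the ribosomal genes were lowest. In the other arrays this opposite run did not hold throughout. The arrays numbered 1, with ratios of 1.63 and 1.60, had ribosomal medians of 0.04 and 0.18, and non-deprived array 2, with 1.43, had -0.16. The group means of the actin ratio, 1.39 ± 0.179 and 1.64 ± 0.239, differed with exact permutation p = 0.171 (two-sided, 0.429 adjusted over 5 control values), where the smallest possible p over 70 assignments is 0.0286. The Gapdh 3' to 5' ratio was 0.898 ± 0.0543 and 0.842 ± 0.0345 (SD, n = 4, exact permutation p = 0.143), and with it as a covariate 19 of 24 ribosomal genes lay below 0. It ran the other way from the actin ratio, being lower in the deprived array of 4 of 4 pairs, and its lowest value was 0.801 in deprived array 2 and its highest 0.977 in non-deprived array 2.

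Of the 4 blood markers on the array 3 were measured, and Epb42 was dim. The median centred log2 value of the 3 was 0.05, -0.28, 0.27 and 0.17 in non-deprived and 0.48, -0.40, -0.37 and 0.16 in deprived arrays 1 to 4. Like that of the ribosomal genes, this median was lowest in deprived arrays 2 and 3. The markers did not all follow the ribosomal profile. Their r with its mean ran from 0.08 to 0.93, and 2 of 3 lay above 0.5, beside 19.0% of all other genes tested. The summed signal of the 4 blood markers on the array ranged from 9697 to 17195 in non-deprived and from 9488 to 16329 in deprived cortex. The 3' control probe set of 18S ribosomal RNA, which is part of the small subunit itself, had 367, 160.0, 363 and 283 in non-deprived and 345, 104, 355 and 235 in deprived arrays, with exact permutation p = 0.629 between the groups. It was low in both arrays numbered 2, but not in deprived array 3. Within pairs it was lower in the deprived array of 4 of 4, as was the 5' control probe set of 18S. The M control probe set of 18S was lower in only 2 of 4 pairs, with exact permutation p = 0.743 between the groups. The exact sign-flip permutation p over pairs was 0.125 for the 3' and 5' probe sets and for the Gapdh ratio. That is the smallest that 16 sign patterns allow. It was 0.250 for the actin ratio and 0.75 for the M probe set. The part of RNA quality and of blood in the ribosomal values was not tested beyond the actin and Gapdh covariates given here.

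**Figure D4:**
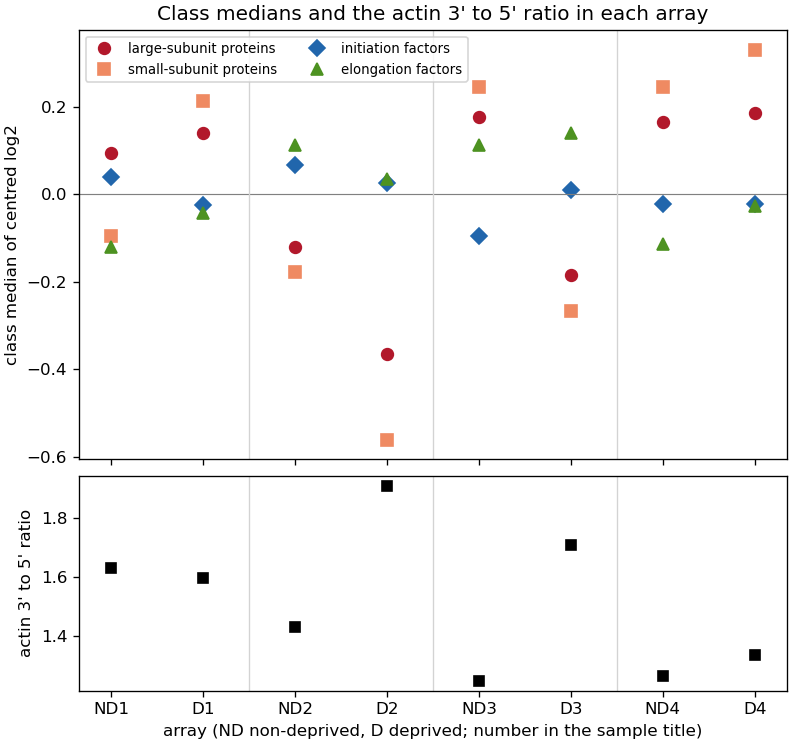
Upper panel: median over each class of the log2 signal minus the gene's own mean, in each of the 8 arrays (ND non-deprived, D deprived). Lower panel: actin 3' to 5' control ratio in the same arrays. Both ribosomal classes are lowest in D2 and next lowest in D3, where the actin ratio is highest (1.91 and 1.71), while initiation factor medians stay within 0.10 of 0.

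The start regions of the ribosomal genes are shown because these genes moved together across arrays, and because their transcripts are known for a pyrimidine run at the start. RefSeq promoter windows, from 250 bases before to 50 after the gene start on GRCm38.p6, were found for 26 of the 33 ribosomal genes by symbol. The pyrimidine motif CTTTCC was searched on both strands. It stood on either strand in at least 1 window of 15 of the 26 genes, or 57.7%, against 30.9% of 6572 genes on the array and 26.7% of 30 initiation factors; a gene with several starts has several windows, 35 for these 26 genes. On the sense strand from 20 bases before to 30 after the start, it stood in 7 of the 26 genes, or 26.9%, against 2.77% and 3.33%. Of these 7 genes, 4 were tested: Rpl10a (chr17:28328574-28328603, plus strand), Rpl13a (chr7:45128719-45128748, minus strand), Rps27 (chr3:90213630-90213659, minus strand) and Rps10 (chr17:27635223-27635252, minus strand). Relative to the annotated gene start the motif began at base 22, 10, 2 and 5 in these 4 genes, in that order. The bases shown for Rpl10a therefore begin after its start, and no match is shown to be the TOP tract of a transcript. The 30 bases around the motif in each are, 5′ to 3′ with CTTTCC in capitals:
Rpl10a: gcgctctgccttCTTTCCggtttccgcggc
Rpl13a: caagacctcctcCTTTCCcaggcggctgcc
Rps27: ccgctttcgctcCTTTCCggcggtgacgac
Rps10: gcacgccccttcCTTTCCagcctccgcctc

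All 4 lay below 0, Rpl10a at -0.10, Rpl13a at -0.13, Rps27 at -0.01 and Rps10 at -0.22, and their r with the other ribosomal genes was 0.90, 0.89, 0.49 and 0.96. Of all 24 tested ribosomal genes 20 lay below 0, and their median r was 0.88. These 4 genes therefore show nothing particular to genes with the motif. The other 3 genes with the motif near the start, Rpl39l, Rpl35a and Rpl38, were dim. A further motif, CCGGAAG, which holds the core bound by ETS-family factors and whose first letters, CC, can be shared with the end of CTTTCC, stood on either strand in a window of 42.3% of the ribosomal genes, 33.3% of the initiation factors and 17.1% of the genes on the array. A match is a string of letters and was not measured as a binding site here.

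Of the initiation factors, Eif3f had the highest difference. It encodes a subunit of eIF3, the scaffold on which the small subunit gathers the other factors. Its signal was 40, 109.5, 109.9 and 125 in non-deprived and 148, 219.6, 184 and 128 in deprived cortex. Every deprived array lay above every non-deprived one, by a narrow margin in pair 4, and non-deprived array 1 was the lowest. The log2 difference was 0.80 ± 0.32 (SE), a fold of 1.74 on the scale of signal plus pseudocount, with adjusted p = 0.995 in limma. Its mean signal was 96.1 ± 38.1 in non-deprived cortex, below the filter's level of 110, and 170.0 ± 40.3 in deprived cortex (SD, n = 4), so its direction was fixed by its passing the filter and supports nothing.

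Of the 9 other eIF3 subunits tested, 4 lay below 0 and the median was 0.05, and the arrays of the groups overlapped for each of them. Eif3l, another subunit, had 1942, 2224, 1815 and 1868 in non-deprived and 2351, 2188, 2415 and 1991 in deprived arrays. Its groups overlapped, with a log2 difference of 0.19 ± 0.13 (SE). Eif3c, a subunit of the core, had means of 3634 ± 487 and 3447 ± 545 (SD, n = 4), with overlapping arrays as well.

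The 3 tested genes of eIF2, which brings the first tRNA, were Eif2s2 and the X and Y copies of the gamma subunit gene. Of these 0 lay below 0, but the direction of Eif2s2 was fixed by the filter and the gamma copies had 0.03 and 0.02. Of the 4 tested genes of eIF2B, the exchange factor of eIF2, 3 lay below 0. Eif2s2, the beta subunit of eIF2, had 91.1, 152, 63.2 and 101 in non-deprived and 122, 149, 189.6 and 155 in deprived arrays. Non-deprived array 2 overlapped the deprived arrays, and the log2 difference was 0.57 ± 0.27 (SE). Its non-deprived mean of 102 lay below the filter's level of 110 and its deprived mean of 154 above it, and a second probe set of the gene had 0.12. Eif2b1, a regulatory subunit of eIF2B, which reloads eIF2 with GTP, had 401, 449.9, 435 and 526 against 358, 401, 356 and 483. Its differences within the 4 pairs ran from -0.28 to -0.12, yet the groups overlapped, and the overall difference was -0.18 ± 0.16.

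Eif5b, the GTPase that joins the subunits, had the lowest difference of the initiation factors. It read 414, 418, 297 and 339 in non-deprived and 309, 342, 238 and 344 in deprived arrays. It was lower in pairs 1 to 3 and near equal in pair 4, at -0.24 ± 0.18 (SE). A second tested probe set of Eif5b had another pattern, with 0.26, 0.07, 0.19 and -1.80 in pairs 1 to 4, at -0.32 ± 0.35. Eif1b, which is related to the factor that helps select the start codon, had means of 3636 ± 453 and 3525 ± 343 (SD, n = 4).

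The tested initiation factors whose symbols begin with Eif4 had 3 of 7 below 0, with a median of 0.00. Eif4g3, a scaffold of the cap-binding complex, had 1978, 2118, 2102 and 1848 in non-deprived and 1655, 1879.9, 1993 and 1832 in deprived arrays. Its differences within pairs ran from -0.26 in pair 1 to -0.01 in pair 4, with overlapping groups and a log2 difference of -0.13 ± 0.12 (SE). Eif4a2, an RNA helicase of that complex, had means of 6966 ± 770.3 and 6577 ± 1229 (SD, n = 4). Eif4e, the cap-binding protein, had 147, 146, 123 and 100 against 124, 205, 121 and 109, where deprived array 2 was the highest and the other deprived arrays lay within the non-deprived range.

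**Figure D5:**
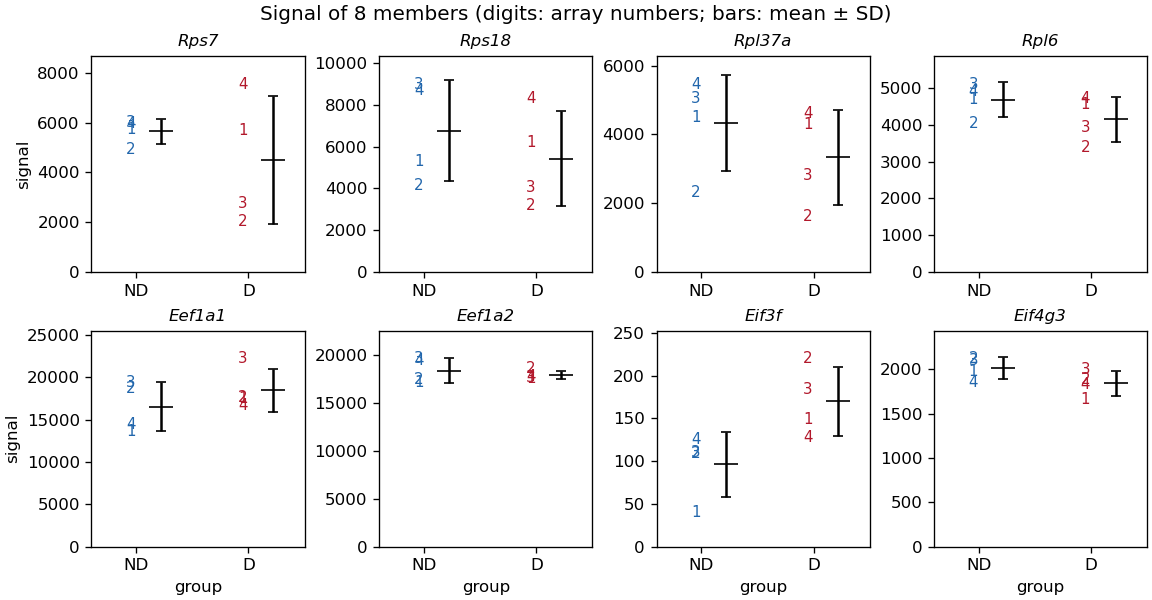
Signal of 8 members in non-deprived (ND) and deprived (D) arrays. Digits give the array number and sit at the array's signal, and bars give the mean ± SD of 4 arrays. Eif3f is the only one of the 8 whose groups do not overlap, and in Rps7, Rps18 and Rpl37a the deprived arrays 2 and 3 lie low.

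The gamma subunit of eIF2 has copies on both sex chromosomes, Eif2s3x on X and Eif2s3y on Y. Eif2s3y had 285, 165, 172 and 139 in non-deprived and 306, 237, 269 and 57.2 in deprived arrays. The arrays numbered 1 were the highest of their groups and deprived array 4 the lowest of all. Xist, the RNA that silences 1 X chromosome in female cells, was low in both arrays numbered 1, at 3.8 and 59.0, and read 334 to 838 in the other 6. The labels give no sex, and the Eif2s3y probe set is of a shared kind by its suffix. Eif2s3x had means of 2938 ± 700.3 and 2941 ± 252 (SD, n = 4), with a log2 difference of 0.03 ± 0.17 (SE).

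The elongation factors did not follow the ribosomal proteins. Eef1a1 and Eef1a2 encode the 2 forms of eEF1A, which delivers tRNAs, the second being the form of mature neurons and muscle. Eef1a1 had 13622, 18706, 19322 and 14470.4 in non-deprived and 17493, 17553, 22162 and 16608 in deprived arrays, and the groups overlapped, deprived array 3 being the highest. Eef1a2 varied least, from 17138 to 19648 in non-deprived and from 17637 to 18598 in deprived arrays. Their log2 differences were 0.17 ± 0.15 and -0.04 ± 0.11 (SE).

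Eef2, which moves the ribosome by a codon, had means of 6048 ± 897 and 5772 ± 856 (SD, n = 4). Eef1d, a subunit of the exchange factor of eEF1A, had 651, 603, 727 and 655 against 779, 801, 933 and 587. Its deprived arrays 1 to 3 lay above every non-deprived array and deprived array 4 below them all, at 0.21 ± 0.16 (SE). Eef1b2, another subunit of the exchange factor, was erratic, with 153, 168, 348 and 69.7 against 116, 95.6, 110.2 and 275. Its probe set is marked by suffix as incomplete or with fewer probes. Eef1g, the gamma subunit of the same complex, stood on a dim probe set with signals of 1.4 to 21.4.

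Among the regulators, 3 kinases that phosphorylate eIF2 and so hold back initiation were tested. Eif2ak4, which senses uncharged tRNA, had 143, 130.0, 75.1 and 79.1 in non-deprived and 129, 91.2, 132 and 147 in deprived arrays. It was lower in pairs 1 and 2 and higher in pairs 3 and 4, for a log2 difference of 0.23 ± 0.27 (SE), with a non-deprived mean of 107 that lay below the filter's level. Eif2ak3, the kinase of endoplasmic reticulum stress, had -0.10 ± 0.26, and Eif2ak1, a kinase regulated by haem, had -0.05 ± 0.15.

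Eif4ebp2, a repressor that binds the cap-binding protein and is prominent in brain, had means of 1639 ± 26.7 and 1609.7 ± 111 (SD, n = 4). Its log2 difference was -0.03 ± 0.12 (SE), against -0.52 on a second probe set and -0.35 with the mean of its probe sets. Its close relative Eif4ebp1 was dim, with 77.9 ± 23.3 and 91.8 ± 19.0, and so was Eef2k, the kinase that inhibits eEF2, with 75.6 ± 33.1 and 75.6 ± 33.6. Eef1akmt1, a methyltransferase of eEF1A, had 339, 262, 309 and 422 against 344, 208, 202 and 428. It was low in deprived arrays 2 and 3 as the ribosomal genes were, its r with their mean profile was 0.85, and its log2 difference was -0.21 ± 0.25 (SE).

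Other genes of the translation pathway were read from fixed lists, and 0 of them passed after adjustment in limma. Of 37 ribosome biogenesis genes 19 lay below 0 and 18 above, with a median of -0.02. The nucleolar RNA helicase gene Ddx21 averaged 199 ± 32.3 in the non-deprived arrays and 290.3 ± 82.2 in the deprived ones (SD, n = 4), and Gar1, a protein of the particles that modify ribosomal RNA, 851 ± 140.3 and 695 ± 116. The 21 aminoacyl-tRNA synthetase genes had 12 below 0 and a median of -0.01. Kars and Cars, which charge the tRNAs of lysine and cysteine, had 0.73 ± 0.44 and 0.72 ± 0.44 (SE), where non-deprived array 3 was the lowest at 47.5 and 54.2.

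The termination and poly(A)-binding list had 4 of 11 below 0, with a median of 0.03. Pabpn1, a nuclear poly(A)-binding protein gene, had -0.13 ± 0.19 (SE), and Abcf1, a ribosome-associated ATPase gene, 0.16 ± 0.16. Of 15 genes for signal recognition and the translocon, which thread nascent proteins into the endoplasmic reticulum, 11 lay below 0, with a median of -0.10. Ssr2 had -0.31 ± 0.24 and Ssr3, another subunit of the same translocon-associated complex, 0.17 ± 0.12.

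The mTORC1 and S6 kinase list had 10 of 19 below 0 and a median of -0.07. Mknk2, a kinase of eIF4E, had 455, 492, 559 and 541 in non-deprived and 525, 595, 734 and 672 in deprived arrays. It was higher in the deprived array of 4 of 4 pairs, with overlapping groups, at 0.29 ± 0.15 (SE), and Sesn1, which restrains mTORC1, had 0.19 ± 0.14. Of 17 targets of the integrated stress response, the programme that eIF2 kinases start, 13 lay below 0, with a median of -0.05. Atf4, its central transcription factor, had 2017, 2266, 2209 and 2636 against 1944, 1875, 1687 and 2346. It was lower in 4 of 4 pairs, with overlapping groups, at -0.22 ± 0.14, and Nupr1, a stress-induced nuclear protein gene, had -0.68 ± 0.49.

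The 16 dim members were 5 large-subunit and 4 small-subunit proteins, 2 initiation factors, 1 elongation factor and 4 regulators. Just below the filter's level stood Eif4ebp1 and Eef2k, and just above it, by their mean over all 8 arrays, Eif2ak4, Eif2s2 and Eif3f. Without the filter 23 of 33 ribosomal genes lay below 0.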

How the data were processed

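The authors deposited 1 table of probe set intensity on a linear scale. The submitters' processing notes name MAS5 as its source, with a version and settings not given in the sources. Each array was rescaled to 1 trimmed mean (about 500, 2% trim), the 66 control probe sets were left out, and values became log2(signal + 15.3), where the pseudocount is the 10th percentile of signals. Differences on this scale understate changes of dim genes. Probe sets with a mean log2 above the 40th percentile (signal about 110) were kept, 7453 of 12422. In the platform annotation 10833 probe sets had 1 symbol, 396 several and 1193 none, and only the first kind was named. Because MAS5 signals depend on the probes, levels of different genes were not compared. No column of sample values (0) was left unused.

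The comparison used limma 3.58.1 under R 4.3.3 (lmFit, then eBayes with intensity trend, two-sided, Benjamini-Hochberg, threshold 0.05), tested on simulated data. Members and lists were described by counts and medians over the 5675 genes tested. Control ratios were compared by exact permutation. The members, lists, settings and the rule for named genes were chosen with earlier results of these data known. The rule names, per class, the 3 tested members with the smallest p in each direction and the 3 of highest mean signal, the 2 genes with the smallest p per list, and Eef1a1, Eef1a2, Eef2, Eef2k, Eif4e, Eif4ebp1, Eif4ebp2, Eif2s3x, Eif2s3y, Rps6, Fos and Egr1. Rps6 had no probe set of its own symbol and was not analysed here.

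Array numbers come from the sample titles, which do not say what they mark. Deviations from group means correlated at 0.16 to 0.42 between same-numbered arrays and at -0.27 to 0.12 between others, and all 4 pairs exceeded the limit of 0.1, so the number was treated as a pairing and used as a block in an alternative. Promoter windows came from RefSeq (GRCm38.p6). Figures used matplotlib 3.10.9 and Python 3.11.15.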

Additional observations from a re-analysis of the deposited data

Results flagged for a closer look

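In 3 of 128 groups of 4 arrays, 1 array lay far from the other 3 by Dixon's ratio of its gap to the group's range (past its critical value), where chance at 1 in 20 groups gives 6.4. The ratio was 0.887 for Eef1b2 in deprived cortex, where deprived array 4 was the highest at 275. It was 0.83 for Eef1a1 in deprived cortex, where deprived array 3 was the highest at 22162, and 0.849 for Eif4e, where deprived array 2 was the highest at 205. The 128 groups did not hold every tested member, so these 3 are not the only such cases among the members. Eif3b in deprived arrays, with 1666, 1653, 2159 and 1670, was not examined. Nor was Rps13 in non-deprived arrays, with 83.6, 79.1, 574.5 and 133. In both, array 3 lay far above the other 3. The cause was not tested.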

How the results depend on the processing

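No member was called in any of the settings run. The block on array number, which treats the numbers as a pairing, gave 0 calls; in this balanced design it leaves each difference as it is, so its 42 members and 20 ribosomal genes below 0 say nothing about stability. With the actin ratio as a covariate, members below 0 numbered 25, ribosomal genes 4 with a median of 0.16, and the elongation factor median was 0.11. Ribosomal genes below 0 numbered 13 to 21 with 1 array left out, 13 being without deprived replicate 2, and the elongation factor median was -0.0691 to 0.139. Counting the several-symbol probe sets too, chosen after seeing the data as was leaving out both arrays of a number, gave 43 of 52. Of the 51 named genes, 26 changed sign under some other setting (39 of 555 values) and 16 with 1 array left out (33 of 408). With the actin ratio, Rpl37a had 0.07, Rpl41 0.19, Rpl19 0.19, Rps7 0.02, Rps18 0.25, Rps10 0.10, Rps24 0.18, Rps28 0.29, Eif4a2 0.03, Eif1b 0.11, Eef1b2 0.19, Eef1akmt1 0.11, Eif2ak1 0.05, Eif4e -0.20, Eif2s3y -0.66, Rpsa 0.11, Rplp0 0.23, Pabpn1 0.14 and Ssr2 0.04. With the Gapdh ratio, Rpl8 had -0.02, Eif4a2 0.10, Eif4ebp2 0.01, Eif4e -0.02, Eif2s3y -0.39, Rpsa 0.06 and Rplp0 0.06. With quantile scaling, Rpl7l1 had -0.04, Eif2s3y -0.05 and Rplp0 0.04, and with cyclic loess Rpl7l1 -0.05, Eef1a2 0.01, Eif4e -0.02, Eif2s3y -0.06 and Rplp0 0.02. With array weights Rpl8 had -0.09 and Eif2ak3 0.01, and with the mean of all probe sets Rpl7 0.14, Rps24 0.09 and Gar1 0.34. With 1 array left out, Rpl8 ranged from -0.10 to 0.10, Rpl41 from -0.26 to 0.06, Rps24 from -0.18 to 0.06, Rps28 from -0.38 to 0.05, Eif1b from -0.12 to 0.03, Eif3c from -0.18 to 0.03, Eef1b2 from -0.56 to 0.14, Eef2 from -0.16 to 0.04, Eif2ak3 from -0.26 to 0.14, Eif4ebp2 from -0.06 to 0.02, Eif4e from -0.10 to 0.18, Eif2s3x from -0.10 to 0.17, Eif2s3y from -0.20 to 0.52, Rpsa from -0.18 to 0.06, Rplp0 from -0.11 to 0.09 and Xist from -0.65 to 1.18. The causes of these reversals were not tested. Values of dim probe sets, near background, limit what Eif3f, Eif2s2 and Eif4e can show.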
